A study of Homo sapiens with 6 samples.

Results

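Heat shock proteins and their partners are the chaperones that keep proteins folded and hand damaged ones to the degradation machinery. Small heat shock proteins such as HSPB1 (also called HSP27) hold unfolding proteins without using ATP, and HSP70 proteins bind and release substrates in an ATP cycle. J-domain proteins of the DNAJ family start that cycle by stimulating the HSP70 ATPase, and nucleotide exchange factors end it by removing ADP. Under heat or other proteotoxic stress many of these genes are switched on by heat shock factor 1, which binds inverted repeats of the letters GAA in their promoters. In skeletal muscle, small heat shock proteins are abundant and associate with the contractile cytoskeleton.

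The genes described here are the entries of the expression table whose symbol begins with HSPA, HSPB, HSPD, HSPE, HSP90 or DNAJ, or with BAG and a digit. Of the 1273 entries, 6 matched. They are HSPB1, the HSP70-like gene HSPA13, the J-domain genes DNAJB2, DNAJC4 and DNAJA4, and HSPBP1. The last of these matches by its letters but encodes a nucleotide exchange factor that binds HSP70, so that counts are also given for the 5 entries without it. The table held 0 entries beginning with HSPD, HSPE, HSP90 or BAG and a digit, and 1 beginning with HSPA. Genes outside the table, which include most members of these families, were not analysed here.

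The RNA came from Rh30, an established human cell line of alveolar rhabdomyosarcoma, a tumor of the skeletal muscle lineage. The PANX1 group was 3 samples of a stable line in which the channel protein pannexin 1 is expressed from a cumate-inducible lentiviral vector, and the GFP group was 3 samples of a line carrying that vector without the PANX1 insert. Both lines carry the CymR repressor and express GFP constitutively, both were kept in geneticin and puromycin, and both received 30 µg/mL cumate for 48 h. Whether either stable line is a single clone or a pool of transduced cells is not given in the sources used here.

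Values are FPKM, sequenced fragments relative to transcript length and to the mapped fragments of a library. The study's methods do not say whether the libraries were also scaled to one another. The file holds no counts per gene, and no counting interval was computed. Read totals of the libraries are given in the study's methods, are not part of the file and were not used here. The table holds the genes that the study's own test had called on these same libraries, so that every gene below had been selected for a difference before it was examined here. PANX1 itself ranged from 28.1 to 37.8 FPKM in control libraries and from 123 to 184 under induction, with replicate 2 the highest, and limma gave a change of 2.04 (adjusted p = 3.38e-05). Of 15 muscle lineage markers, 3 were in the table (DES, CDH15 and FGFR4), with group means of 24 to 461 FPKM. MYOD1, MYOG and PAX3 were not analysed here, so that expression of lineage markers was seen for those 3 alone. None of 9 fibroblast and epithelial markers and 1 of 3 immune markers (CD68, below 3 FPKM in all 6 libraries) were in the table. As the table holds called genes only, absence of a marker says nothing about its expression or about the purity of the cells. Between the groups, limma gave changes of 1.23 for CDH15 (adjusted p = 0.0198), 1.21 for FGFR4 (adjusted p = 0.0135), 0.81 for CD68 (adjusted p = 0.0349) and 0.72 for DES (adjusted p = 0.0885), none with overlap between the groups, and their part in the results below was not tested. PANX1 replicate 3 stood apart from the other libraries of its group. Over the whole table, its median log2 ratio to the GFP mean was 1.87, where replicates 1 and 2 had 0.77 and 0.61, and results are therefore given with and without that library.

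**Figure D1:**
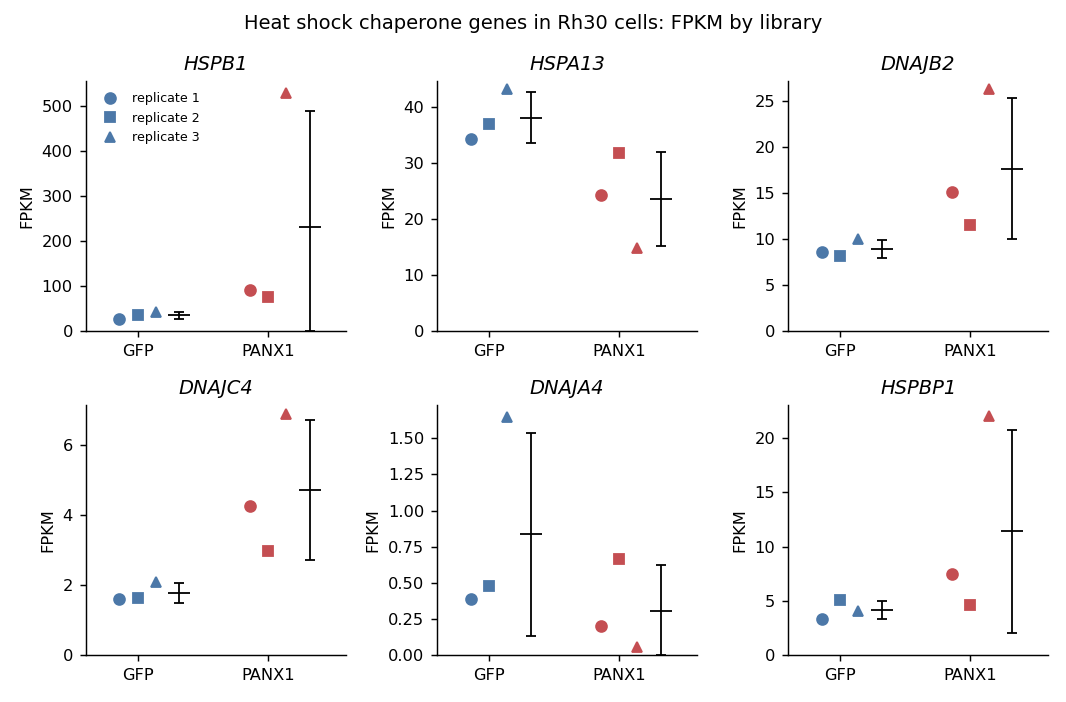
FPKM of the 6 genes in each library, with GFP libraries in blue and PANX1 libraries in red and a marker shape for each replicate number. Black bars are the mean and SD of 3 libraries (lower bars end at 0 where the SD is larger than the mean), and each panel has its own linear axis. The 3 PANX1 values of HSPB1 lie above its GFP values, with replicate 3 at 529 FPKM.

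HSPB1 showed the largest ratio of the 6 genes. It was measured at 27.4, 35.8 and 41.7 FPKM in GFP replicates 1, 2 and 3 and at 91.5, 75.7 and 529 FPKM in PANX1 replicates 1, 2 and 3. The groups did not overlap, and the lowest PANX1 library was still clearly above the highest GFP library. PANX1 cells averaged 232 ± 257 FPKM (SD, n = 3) against 34.9 ± 7.21 (SD, n = 3) in control cells, a PANX1 to GFP ratio of 6.64. Replicate 3 lay far above the others, and the SD of the PANX1 group was larger than its mean. Without that library the ratio was 2.39. In bulk RNA, more cells expressing a gene and more RNA of it per cell cannot be told apart. On the log2(FPKM + 1) scale, HSPB1 rose by 2.13 (standard error 0.376, adjusted p = 1.92e-05, limma, Benjamini-Hochberg adjustment across all entries), and without PANX1 replicate 3 by 1.25 (adjusted p = 0.00137). The exact two-sided permutation test over the 6 libraries gave p = 0.1, the smallest that 3 libraries against 3 allow.

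The limma result for HSPB1 rests on how the spread is estimated. In the reported fit with a trend, limma took the variance wholly from genes of similar level (prior degrees of freedom infinite). HSPB1's own spread in PANX1 cells, a coefficient of variation of 111% against a table median of 52.4%, did not enter. The same held for every entry of the reported fit. Without a trend the adjusted p of HSPB1 was 0.0664. HSPB1 was also not past the threshold after median-of-ratios scaling (change 1.08, adjusted p = 0.169) or after removal of each library's slope on GC content (change 1.15, adjusted p = 0.104). The scaling factors came from this table of called genes alone, so that a shift shared by most entries was removed with them. The change of HSPB1 was positive in all 15 alternative fits, between 1.08 and 2.64.

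Within the table, HSPB1 held rank 24 of 1273 by the ratio of means. Ranked in single libraries against the GFP mean, it stood at 87, 145 and 14 in PANX1 replicates 1, 2 and 3, of 1268 entries with a finite ratio. PANX1 itself was at 124, 184 and 123 FPKM in PANX1 replicates 1, 2 and 3, and HSPB1 was lowest of the group in replicate 2. The table's median log2 ratio was 0.77, 0.61 and 1.87 in these libraries. The relation of HSPB1 to either was not tested.

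HSPB1 (XLOC_020570) lies on chromosome 7 of hg19 from 75931875 to 75933614, on the plus strand, and its canonical transcript in GENCODE has 3 exons. The processed pseudogenes HSPB1P1 and HSPB1P2 hold stretches 97.3% and 97.2% identical to the HSPB1 transcript over 256 and 176 of its 812 bases. Reads from those stretches may be shared, and the table does not show how they were divided.

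The sequences upstream of 2 genes are shown because, among the 6, these alone held the paired units of a heat shock element in the 250 bases before a RefSeq start. The units searched were GAANNTTC and TTCNNGAA, each of which reads the same on both strands. The 6 genes have 11 start windows in the RefSeq promoter table (GRCh38.p14), which were each found once, letter for letter, on hg19. A unit was present in 2 of the 11 windows (18.2%), against 7.95% of the 1397 windows of table entries and 11.6% of all 35116 windows. Capitals mark the units. The HSPB1 stretch ends at the base before its locus in the table, and the DNAJA4 stretch at the base before the RefSeq start that follows the units.
HSPB1, chr7:75931740-75931874, plus strand: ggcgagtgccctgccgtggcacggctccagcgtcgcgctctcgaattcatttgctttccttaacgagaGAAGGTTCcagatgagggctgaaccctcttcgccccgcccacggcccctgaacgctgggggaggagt
DNAJA4, chr15:78556754-78556903, plus strand: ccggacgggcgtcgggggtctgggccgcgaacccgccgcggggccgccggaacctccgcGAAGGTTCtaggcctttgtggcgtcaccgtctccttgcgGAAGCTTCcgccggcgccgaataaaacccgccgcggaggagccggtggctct

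The HSPB1 unit begins 67 bases before its locus in the table and 182 bases before the RefSeq start. The DNAJA4 units begin 91 and 52 bases before that start, which lies inside the DNAJA4 locus of the table. The first unit has the same letters, GAAGGTTC, in both genes. These matches describe letters in a window only, and start windows of 1 gene can overlap. By the mean, HSPB1 was higher and DNAJA4 lower in PANX1 cells, with overlap between the groups in DNAJA4 (adjusted p = 0.0686, limma). Whether the units bear on either change was not tested.

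HSPA13 encodes an HSP70-like ATPase of the microsomes that lacks the substrate-binding part of other HSP70 proteins. It had 34.2, 37 and 43.2 FPKM in GFP replicates 1 to 3, and 24.3, 31.7 and 14.8 FPKM in PANX1 replicates 1 to 3. All PANX1 values lay below all GFP values, with replicate 3 the lowest. PANX1 cells averaged 23.6 ± 8.45 FPKM (SD, n = 3) against 38.1 ± 4.61 (SD, n = 3) in control cells, a PANX1 to GFP ratio of 0.62. Limma gave a change of -0.72 with a standard error of 0.411 (adjusted p = 0.0993), which did not pass the threshold. Without PANX1 replicate 3 the change was smaller, at -0.44, but passed (adjusted p = 0.0274). The sign was kept under median-of-ratios scaling (-1.74) and turned to 0.14 after the GC correction. HSPA13 (XLOC_014238, chromosome 21 of hg19, 15743437 to 15755509, minus strand, 5 exons) had the lowest GC content of the 6 genes, at 34.5%.

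HSPB1 and HSPA13 were at similar FPKM in control cells and far apart in PANX1 cells. HSPB1 over HSPA13, a ratio within a library that scaling of that library cannot change, was 0.8, 0.967 and 0.965 in GFP replicates 1, 2 and 3. It was 3.76, 2.39 and 35.6 in PANX1 replicates 1, 2 and 3. HSPB1 made up 36.3% to 40.6% of the summed FPKM of the 6 genes in GFP libraries. Its share was 64.1%, 59.5% and 88.3% in PANX1 replicates 1, 2 and 3. The balance between the most abundant members thus differed between the groups in each PANX1 library, and most in replicate 3. HSPB1 and HSPA13 had the highest and lowest GC content of the 6 genes (65.5% and 34.5%), and a GC effect within a library would change their ratio. After the GC correction their limma changes were 1.15 and 0.14, beside 2.13 and -0.72 in the reported fit. The part of GC content in this balance was not tested.

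DNAJB2 encodes a J-domain protein that binds ubiquitin and sorts HSP70 clients toward the proteasome. Its FPKM was 8.59, 8.16 and 10 in GFP replicates 1 to 3, and 15.1, 11.6 and 26.3 in PANX1 replicates 1 to 3. The groups did not overlap, though GFP replicate 3 and PANX1 replicate 2 lay close together. PANX1 cells averaged 17.7 ± 7.67 FPKM (SD, n = 3) against 8.92 ± 0.972 (SD, n = 3) in control cells, a PANX1 to GFP ratio of 1.98. Limma gave a change of 0.84 with a standard error of 0.483 (adjusted p = 0.102), and 0.53 without PANX1 replicate 3 (adjusted p = 0.0168). Its sign turned to -0.16 under median-of-ratios scaling, as its ratio was below the table's median. DNAJB2 is XLOC_012663, on chromosome 2 of hg19 from 220144040 to 220151622, plus strand, with 9 exons.

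DNAJC4 encodes a small J-domain protein. It had 1.59, 1.62 and 2.09 FPKM in GFP replicates 1 to 3, and 4.25, 2.97 and 6.89 FPKM in PANX1 replicates 1 to 3. The groups did not overlap. PANX1 cells averaged 4.71 ± 2 FPKM (SD, n = 3) against 1.77 ± 0.278 (SD, n = 3) in control cells, a PANX1 to GFP ratio of 2.66. Limma gave a change of 0.99 with a standard error of 0.448 (adjusted p = 0.0609), and 0.73 without PANX1 replicate 3 (adjusted p = 0.00559). It also passed without PANX1 replicate 2 (adjusted p = 0.0319). DNAJC4 stood out in replicate 1, where its ratio to the GFP mean ranked 119 of 1268, against ranks of 443 and 565 in the other two. Under median-of-ratios scaling its change was 0.20 and after the GC correction 0.089. The gene (XLOC_003582, chromosome 11 of hg19, 63997753 to 64001753, plus strand, 6 exons) overlaps transcripts of NUDT22 in GENCODE. NUDT22 is also in the table, with a log2 ratio of 1.51, and 297 bases are shared between their transcripts, so that the division of reads between both genes is uncertain.

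DNAJA4 encodes a J-domain cochaperone of cytosolic HSP70 and was the least abundant of the 6. It was at 0.384, 0.478 and 1.65 FPKM in GFP replicates 1 to 3, and at 0.197, 0.664 and 0.057 FPKM in PANX1 replicates 1 to 3. The groups overlapped, because PANX1 replicate 2 was above GFP replicates 1 and 2. PANX1 cells averaged 0.306 ± 0.318 FPKM (SD, n = 3) against 0.836 ± 0.703 (SD, n = 3) in control cells, and the log2 ratio of -1.45 was the twelfth lowest of the table. The log2 ratio was -2.72 without PANX1 replicate 2 and -0.49 without GFP replicate 3. Limma gave a change of -0.45 with a standard error of 0.214 (adjusted p = 0.0686) on a scale that compresses values this low. With pseudocounts of 0.1 and 0.01 the changes were -1.26 (adjusted p = 0.0357) and -1.70 (adjusted p = 0.0315), and without PANX1 replicate 2 the change on the first scale was -0.64 (adjusted p = 0.0175). Only 4 of 14 alternative fits passed. The change was -0.16 without GFP replicate 3 (adjusted p = 0.481), -0.32 without PANX1 replicate 3 (adjusted p = 0.2) and -0.43 after the GC correction (adjusted p = 0.288). Without a trend the adjusted p was 0.259. DNAJA4 (XLOC_007328, chromosome 15 of hg19, 78556487 to 78574538, plus strand, 7 exons) overlaps SKIC8 and 2 long noncoding genes on the minus strand. The counting is not stated to use strand, and reads of such partners then cannot be told apart.

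HSPBP1 encodes a nucleotide exchange factor of HSP70 that also inhibits the ubiquitin ligase STUB1. It had 3.33, 5.05 and 4.08 FPKM in GFP replicates 1 to 3, and 7.44, 4.57 and 22.1 FPKM in PANX1 replicates 1 to 3. The groups overlapped, with PANX1 replicate 2 below GFP replicate 2. PANX1 cells averaged 11.4 ± 9.39 FPKM (SD, n = 3) against 4.15 ± 0.86 (SD, n = 3) in control cells, a PANX1 to GFP ratio of 2.74 that was 1.45 without PANX1 replicate 3. Limma gave a change of 1.01 with a standard error of 0.525 (adjusted p = 0.0834), and 0.43 without that library (adjusted p = 0.0822). It passed without PANX1 replicate 2 (change 1.45, adjusted p = 0.0313). HSPBP1 is XLOC_011964, on chromosome 19 of hg19 from 55773591 to 55791751, minus strand, with 8 exons. Its change was 0.072 under median-of-ratios scaling.

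**Figure D2:**
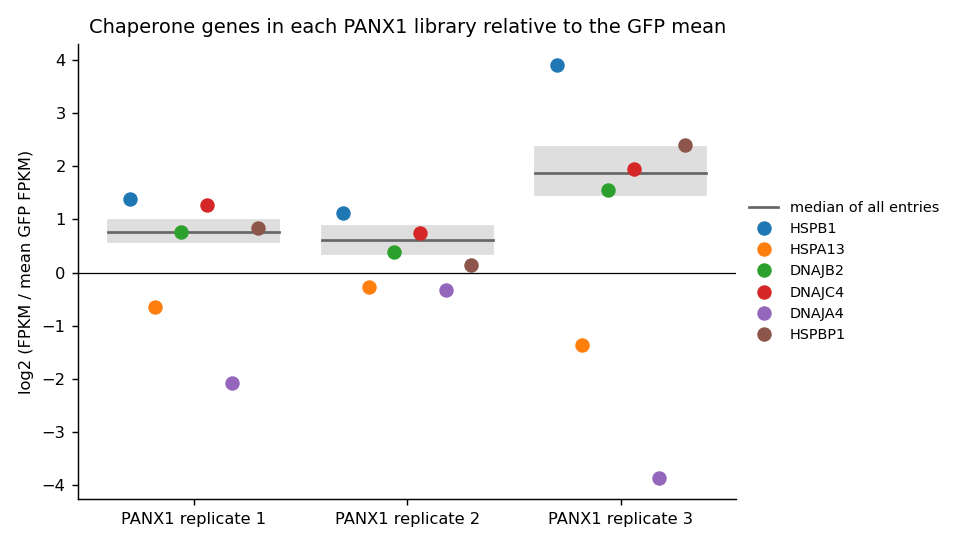
Log2 ratio of each gene's FPKM in a PANX1 library to its mean in the GFP libraries. Grey lines and boxes are the median and the interquartile range of all entries of the table. HSPB1 lies above the median in the 3 libraries and HSPA13 and DNAJA4 below 0 in each, while DNAJB2 stays near or under the median.

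Across the 6 genes, 4 had a higher mean in PANX1 cells and 2 a lower one. In 3 of the higher genes the groups were free of overlap, where 82% of the table's entries were higher without overlap, and in 1 of the lower genes, where 11.9% of entries were. With limma, 1 of the 6 genes was called higher (HSPB1), against 33.5% of the table, and 0 were called lower, against 0.707%. At an unadjusted p under 0.05, 2 were higher (HSPB1 and DNAJC4) and 1 lower (DNAJA4), against 58.4% and 3.38% of the table. Without PANX1 replicate 3, limma called 3 genes higher (HSPB1, DNAJC4 and DNAJB2) and 1 lower (HSPA13), against 78.1% and 11.5% of the table. With 6 genes beside a table already selected for differences, nothing particular to chaperones is read from these counts.

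The median log2 ratio of the 6 genes was 1.20, beside 1.23 for all entries, and 0.99 without HSPBP1. In PANX1 replicates 1, 2 and 3 the medians were 0.80, 0.26 and 1.76. Median-of-ratios scaling moved the median of the table by -1.18, to 0.043, and that of the 6 genes to -0.023. Its factors were taken from this table, where most entries were higher in PANX1 cells, so that a table median near 0 follows from the scaling. HSPB1 was above the upper quartile of the table in the 3 PANX1 libraries, DNAJC4 in replicate 1 and HSPBP1 in replicate 3. HSPA13 and DNAJA4 were below the lower quartile in each of them.

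Replicate 3 was the extreme PANX1 library in each of the 6 genes, highest for the 4 with a higher mean and lowest for the 2 with a lower mean. Over the table it did so in 1081 of 1108 higher and 158 of 165 lower entries. HSPB1 was 6.32 times as high in replicate 3 as in the mean of replicates 1 and 2, rank 14 of 1273 on this measure. DNAJA4 was at 0.132 times that mean, the second lowest of the table. The corresponding values were 3.68 for HSPBP1, 1.97 for DNAJB2, 1.91 for DNAJC4 and 0.53 for HSPA13.

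The GC content of the transcripts went with the direction in 5 of these genes. It was 65.5% for HSPB1, 64.6% for HSPBP1, 64.2% for DNAJC4 and 61.3% for DNAJB2, and 34.5% for HSPA13. The table's higher entries had a median of 61.7%, its lower entries 39.3%, and annotated protein-coding genes 49.1%. Spearman's rho between GC content and the replicate 3 ratio was 0.66 across 1186 entries, which share the libraries and are not independent. DNAJA4, at 48.7%, was close to the annotated median and had the second lowest ratio. The part of GC content in these differences was not tested. After the GC correction, which also takes away any true change that follows GC content, 0 of the 6 genes passed the threshold, where 0.759% of the entries were called higher. HSPB1 alone had an unadjusted p under 0.05 there, as had 26.3% of entries in the higher direction.

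**Figure D3:**
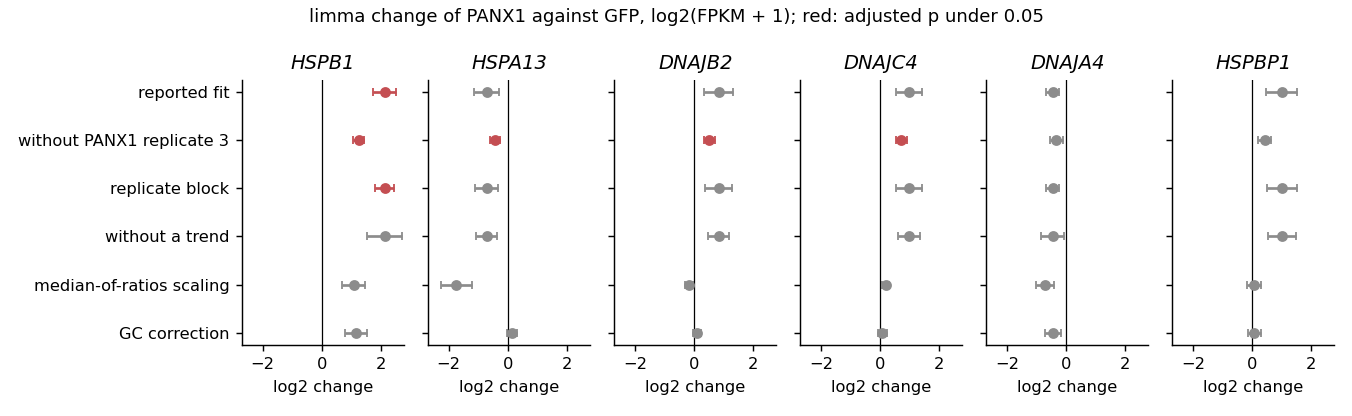
Limma change (points) and standard error (bars) of the 6 genes on log2(FPKM + 1) in the reported fit and 5 alternatives. Red points have an adjusted p under 0.05, which HSPB1 reaches in 3 of the 6 fits shown. DNAJB2 turns to -0.16 under median-of-ratios scaling and HSPA13 to 0.14 after the GC correction.

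The profile of HSPB1 over the 6 libraries was shared by much of the table. Pearson's r on log2(FPKM + 1) was above 0.9 for 1031 of the other entries (81.1%), with a median of 0.98, so that r says little about a particular gene. The entries with the highest r were SBF1 and WASH3P (0.9996 each), followed by CHPF, GSTT2 and POLRMT (0.9994 each), over n = 6 libraries. Among the 6 chaperone genes, r with HSPB1 was 0.98 for DNAJB2, 0.97 for DNAJC4, 0.96 for HSPBP1, -0.56 for DNAJA4 and -0.93 for HSPA13. The likest entries had smaller ratios than HSPB1, from 3.07 in SBF1 to 5.82 in GSTT2.

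Within 100 kb, the table held 6 entries near DNAJC4, 4 near DNAJB2, 2 near HSPBP1 and 1 near HSPB1, and 0 near HSPA13 and DNAJA4. All 13 of these neighbors had a higher mean in PANX1 cells, as had 1108 of the 1273 entries. Their log2 ratios ran from 0.76 for TUBA4A to 2.12 for TMEM86B. SRRM3, the neighbor of HSPB1, had a log2 ratio of 1.14, below the table's median.

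**Figure D4:**
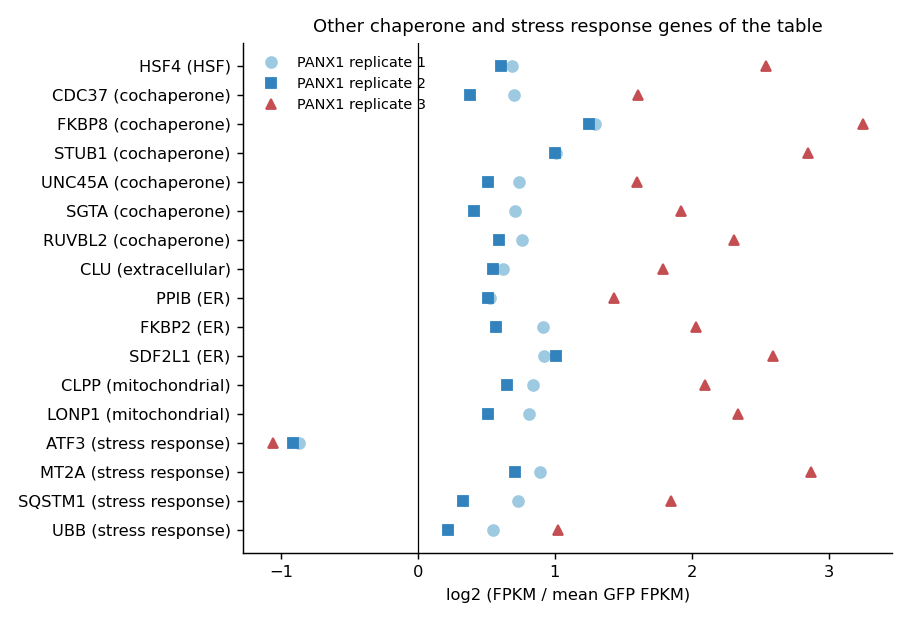
Log2 ratio to the GFP mean in PANX1 replicates 1, 2 and 3 for 17 other chaperone and stress response genes of the table, with the kind of gene in brackets. ATF3 lies below 0 in the 3 libraries, and replicate 3 gives the highest ratio in the other 16.

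The partners of these chaperones were read from lists of 114 further genes, of which 17 were in the table. Of the 17, 16 had a higher mean in PANX1 cells and 1 a lower one in the reported values. After median-of-ratios scaling, which by construction brings the table's median near 0, 9 had a positive limma change. After the GC correction 14 had one. Limma called 12 of the 17 higher and 0 lower, where 33.5% of the table was called higher. Under median-of-ratios scaling and after the GC correction it called 0. Without a trend it called 0 entries of the whole table, and so 0 of the 17. Without PANX1 replicate 3 it called 15 higher and 0 lower, where 78.1% of the table was, and these held all 12, with changes of 0.26 to 1.21. The median log2 ratio of the 17 was 1.31, beside 1.23 for the table. The lists were chosen with earlier results of these data known, so that nothing particular to chaperones is read from their counts.

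The cochaperones of HSP70 and HSP90 were the list with the most entries, 7 of 34 with HSPBP1 included. Limma called 4 of the 7 higher, where 33.5% of the table was. FKBP8, a membrane-anchored HSP90 partner of mitochondria, had 43.6 ± 37.4 FPKM (SD, n = 3) under PANX1 against 9.12 ± 2.25 (SD, n = 3) in controls and changed by 1.85 (adjusted p = 0.00165), or by 1.21 without PANX1 replicate 3. STUB1, the ubiquitin ligase that marks HSP70 and HSP90 clients for degradation, had 2.87, 3.18 and 3.17 FPKM in GFP and 6.19, 6.16 and 22.2 FPKM in PANX1 libraries and changed by 1.38 (adjusted p = 0.0358), or by 0.82 without replicate 3. RUVBL2, an ATPase of the R2TP complex that works with HSP90, changed by 1.19 (adjusted p = 0.0247), or by 0.66 without it. SGTA, named here because it completes the count, was the other gene called (0.99, adjusted p = 0.0478), and its change was 0.54 without replicate 3 and -0.052 under median-of-ratios scaling. The changes of FKBP8, STUB1 and RUVBL2 were positive under both corrections, with no adjusted p under 0.05 in either.

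Among regulators, 1 of 6 genes of the heat shock factor pathway was in the table. HSF4, which shares its entry with FBXL8, had a change of 0.65 (adjusted p = 0.0468) that was 0.26 without PANX1 replicate 3 and turned to -0.55 after the GC correction. HSF1 and HSF2 were not analysed here. The list of chaperonin and prefoldin subunits and tubulin cofactors, proteins that act in the folding of actin and tubulin, had 0 of 21 genes in the table. Nothing is read from this count. CLU, an extracellular chaperone, was the 1 of 4 further small heat shock or extracellular chaperone genes, and its change of 0.96 (adjusted p = 0.0458) was 0.57 without PANX1 replicate 3 and turned to -0.084 under median-of-ratios scaling.

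In the endoplasmic reticulum list 3 of 19 genes were present and 2 were called higher, where 33.5% of the table was. SDF2L1, a partner of the HSP70 protein of that compartment, changed by 1.41 (adjusted p = 0.0227), or by 0.89 without PANX1 replicate 3. FKBP2, a prolyl isomerase, changed by 1.14 (adjusted p = 0.0338), with values of 0.72 without replicate 3 and -0.0051 after the GC correction. The prolyl isomerase PPIB was at 317 ± 125 FPKM (SD, n = 3) under PANX1 against 171 ± 7.33 (SD, n = 3) in controls, a change of 0.82 that missed the threshold (adjusted p = 0.0617), was 0.52 without PANX1 replicate 3 (adjusted p = 0.0135) and was -0.25 after median-of-ratios scaling. The mitochondrial proteases CLPP and LONP1 were the 2 of 13 genes of their list. Both were called higher, where 33.5% of the table was, with changes of 1.17 (adjusted p = 0.0315) and 1.16 (adjusted p = 0.0398). Without PANX1 replicate 3 these were 0.73 and 0.62. Both calls were lost under median-of-ratios scaling (0.14, adjusted p = 0.555, and 0.15, adjusted p = 0.598) and after the GC correction (0.77, adjusted p = 0.104, and 0.35, adjusted p = 0.239).

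Of 18 other stress response genes 4 were in the table, with 2 called higher and 0 lower, where 33.5% and 0.707% of the table were. MT2A, a metallothionein that binds zinc and copper, had 38.5, 43.8 and 43.8 FPKM in GFP and 78.1, 68.9 and 308 FPKM in PANX1 libraries and changed by 1.48 (adjusted p = 0.00306), or by 0.79 without PANX1 replicate 3. SQSTM1, the autophagy receptor p62, changed by 0.96 (adjusted p = 0.0469), with values of 0.52 without replicate 3 and -0.09 under median-of-ratios scaling. The polyubiquitin gene UBB had a change of 0.60 (adjusted p = 0.14), which was 0.39 without replicate 3 and -0.47 under that scaling. ATF3, a transcription factor of the stress response, was at 28.8, 37.5 and 86.7 FPKM in GFP and at 28, 27.2 and 24.6 FPKM in PANX1 libraries. All 3 PANX1 values of ATF3 were below the GFP values, although GFP replicate 1 and PANX1 replicate 1 were nearly equal, and its change was -0.76 (adjusted p = 0.0876).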

How the data were processed

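RNA-seq of 6 Rh30 libraries was used. The deposited FPKM values were made by the authors, with Cufflinks 2.2.1 after alignment by TopHat 2.0.13 (on Bowtie 2.2.3) to the hg19 genome. Only genes that their test had called were in the table. The file holds no read counts per gene, so that no count test was run. The methods give read totals per library, which were not used here.

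Libraries were grouped by their titles. The methods call them biological replicates and the PANX1 samples matching ones, without saying which sample matches which, and titles and descriptions number the PANX1 samples differently. Whether they were separate cultures is not stated, so p-values measure only the spread between these samples. PANX1 was compared with GFP by limma 3.58.1 (R 4.3.3) with a variance trend, on log2(FPKM + 1) and across all entries, without a block, with Benjamini-Hochberg adjustment and a threshold of 0.05. The fit was tested on simulated data with independent noise in each gene and no outlying library, which does not test its calibration here. Ratios are of mean FPKM without a pseudocount. GC content came from the longest coding transcript in GENCODE v44lift37, on the build of the files, and matched 1186 entries (93.2%). Similar transcripts were found with blastn 2.17.0 at 90% identity over at least 100 bases. Promoters are RefSeq's. Python 3.11.15 was used for summaries.

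All genes matching the symbol rule are described, with up to 4 genes of each further list by size of limma change and the 5 entries most like HSPB1. The members and lists were chosen with earlier results of these data known. Tried instead were replicate blocks, other pseudocounts (0.1, 0.01), only entries averaging 1 FPKM or more, median-of-ratios scaling, no trend, GC correction and leaving out each library.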

Additional observations from a re-analysis of the deposited data

How the results depend on the processing

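The number of chaperone genes that limma called higher was 1, and 0 were called lower, beside 426 and 9 of the 1273 entries. The count of higher genes was 3 with the replicate block by description number, where 1005 of the 1273 entries were called higher. It was 0 under median-of-ratios scaling, without a trend and with the GC correction, where 0, 0 and 9 entries were. At an unadjusted p under 0.05 in these settings, 1, 3 and 1 of the genes were higher. Beside them were 145 of 1273, 770 of 1273 and 312 of 1186 entries. The count of lower genes was 1 with a pseudocount of 0.1 or 0.01, where 22 and 20 entries were called lower, and 2 with the block by description number, where 140 were. The description numbers leave only 2 pairs, so that this block also takes PANX1 replicate 3 and GFP replicate 1 out of the estimate, and the parts of the block and of these libraries cannot be told apart. With each library left out in turn, 1 to 3 genes were called higher and 0 to 1 lower. The larger counts came without PANX1 replicate 2 or 3, where 716 and 994 entries were called higher and 23 and 146 lower. With any other library left out, 1 gene was called higher and 0 lower, beside 8 to 300 and 0 to 3 entries. The median log2 ratio of the 6 genes was 1.20, turned to -0.023 under median-of-ratios scaling, and ran from 0.56 (without PANX1 replicate 3) to 1.44 with 1 library left out. Genes without overlap numbered 3 higher and 1 lower, where 82% and 11.9% of all entries were so. Under median-of-ratios scaling 1 was higher. With 1 library left out 3 to 4 were higher and 1 to 2 lower, where the count of 2 lower was without PANX1 replicate 2. The share of all entries was not computed in these other settings, so that nothing about the genes is read from the shifts. The PANX1 change of 2.04 (adjusted p = 3.38e-05) was 0.99 (adjusted p = 0.248) under median-of-ratios scaling and 2.04 (adjusted p = 0.0633) without a trend. HSPA13 turned to 0.14 after the GC correction, with and without the replicate block, and DNAJB2 to -0.16 under median-of-ratios scaling. The cause of these shifts was not tested.

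With the title's replicate number as a block, 1 gene was called higher and 0 lower, as without it, beside 581 and 33 entries of the table. Across genes, the deviations of same-numbered libraries from the group mean had correlations of 0.42, -0.36 and 0.14 for numbers 1, 2 and 3, so that not every pair went together. The sample descriptions number the PANX1 samples differently from the titles. With the GC correction and the block together, 1 gene (HSPB1) was called higher, with a change of 1.15 (adjusted p = 0.0378), beside 81 of 1186 entries.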
